A study of Mus musculus with 7 samples.

Results

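The calcineurin and NFAT arm of calcium signaling was followed in 10 genes by RNA-Seq of mouse knee cartilage, chosen as the rows of the count table whose gene name was exactly *Ppp3ca*, *Ppp3cb*, *Ppp3r1*, *Rcan1*, *Rcan2*, *Nfatc1*, *Nfatc2*, *Nfatc3*, *Nfatc4*, or *Nfat5*. All 10 were found, each in 1 row, among 55401 genes, and all 10 were among the 16429 genes that passed the filter of more than 1 CPM, the count scaled to the size of the library, in at least 2 samples. The rule takes rows by name, although the names were picked with earlier results of these data known. The mice were C57BL/6J males, either WT or homozygous for the germline allele *Trpc1*tm1Lbi, which lacks a transmembrane exon (*Trpc1*-/-), and all had destabilization of the medial meniscus (DMM), the knee surgery that induces OA, on the right knee at 10 weeks of age. There were 4 WT and 3 *Trpc1*-/- samples, collected 2 weeks after DMM, each a pool of 2 to 3 mice. No sham-operated or unoperated knee was among them, so an effect of DMM itself cannot be read from these samples. The Methods add subchondral bone to the cartilage and give the group sizes the other way round, so the labels were used for the groups.

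Calcineurin is the phosphatase through which a rise in cytosolic calcium reaches gene expression. Calcium and calmodulin activate its catalytic subunit, which is held with a calcium-binding regulatory subunit, and the enzyme strips phosphates from NFATc1 to NFATc4 so that they enter the nucleus. There NFATc proteins bind DNA that holds GGAAA, often beside AP-1, until kinases phosphorylate them again and exportin returns them to the cytosol. The RCAN proteins bind calcineurin and restrain it, and *Rcan1* has an internal promoter that is itself switched on by NFAT. NFAT5 shares the DNA-binding domain but lacks the calcineurin docking region and responds to osmotic stress. In the skeleton, NFATc1 is best known as the master regulator of osteoclast formation, and NFAT proteins are also expressed by chondrocytes.

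None of the 10 genes passed edgeR's quasi-likelihood test of genotype after adjustment over all 16429 genes (adjusted *P* 0.496 to 0.976), a test that called 0.0% of all genes. DESeq2 also called 0 of the 10, against 1.79% of all genes. At an unadjusted *P* under 0.05, edgeR gave 1 of 10, *Nfatc4*, where 10.0% of all genes were reached. The logFC, *Trpc1*-/- relative to WT on the log2 scale, was below 0 for 6 of 10 and for 51.9% of all genes. The median logFC was -0.14 over the 10 and -0.01 over all genes. The groups overlapped for all 10, whereas 13.6% of all genes had groups that did not overlap.

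**Figure D1:**
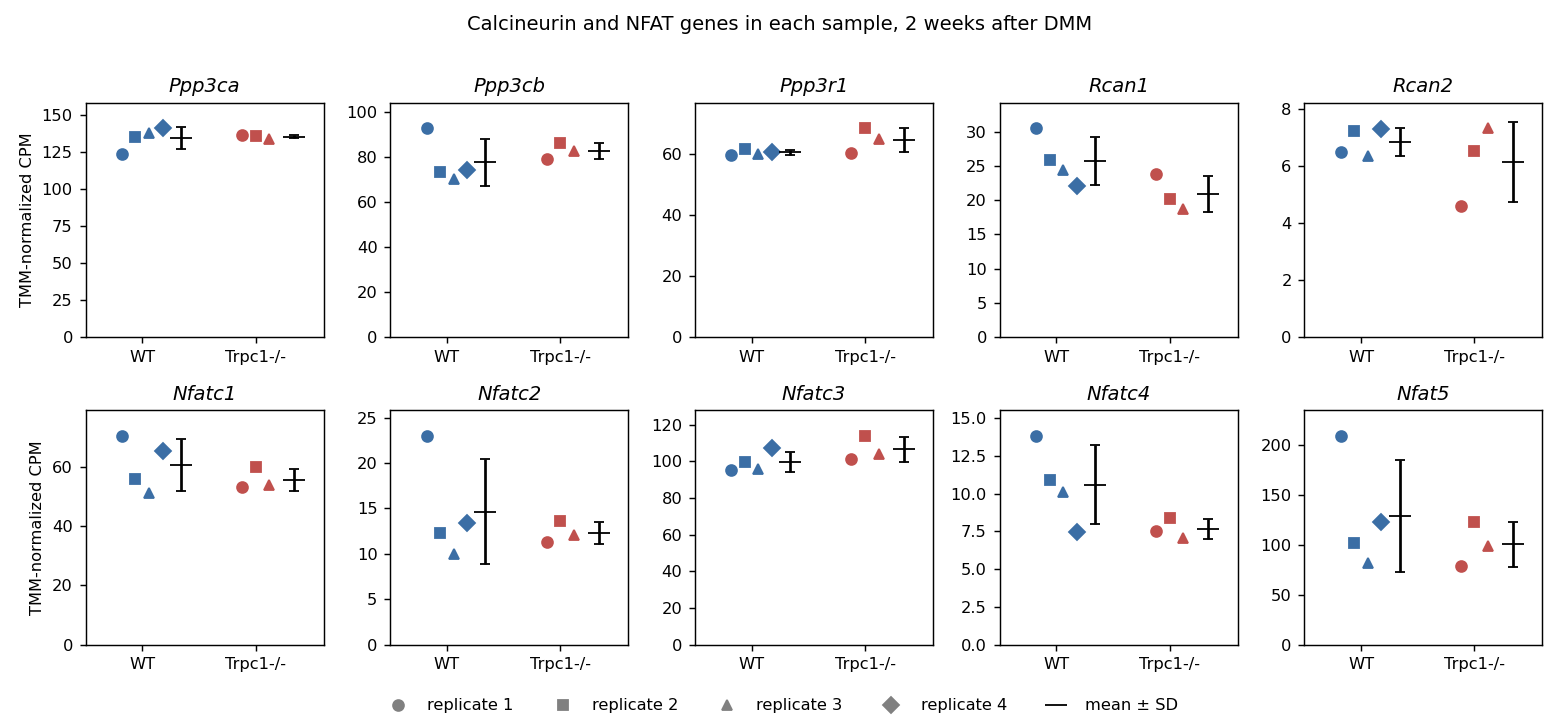
Level of each calcineurin and NFAT gene in each sample, in TMM-normalized CPM on axes that start at 0. Points are samples (blue WT, red *Trpc1*-/-, shapes give the replicate number) and black bars are the mean ± SD. WT replicate 1 stands above the other WT samples for *Nfat5* (209 CPM) and *Nfatc2* (23.0 CPM), and every pair of groups overlaps.

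The samples were checked before the genes were compared. The total count per sample was 52142451 to 116815517 in WT and 94972137 to 118254070 in *Trpc1*-/-, and WT replicate 1 had the lowest. *Trpc1* itself was at 4.32 to 4.81 CPM in the 4 WT samples and at 3.03 to 3.78 CPM in the 3 *Trpc1*-/- samples (logFC = -0.44 ± 0.13 SE; edgeR adjusted *P* = 0.407). The groups did not overlap, in the direction the labels give, but transcript of the gene remained: the line lacks a single exon, and a count over the whole gene does not show which exons were read. All 8 chondrocyte markers were detected in every sample, with *Acan* at 354 to 703 CPM. The summed chondrocyte level was 5322 to 5673 CPM in WT and 3027, 5745, and 3255 CPM in *Trpc1*-/- replicates 1 to 3. Markers of bone and marrow cells were detected as well, and the 10 erythroid markers summed to 15383 to 28710 CPM in WT and 33304 to 45434 CPM in *Trpc1*-/-, with no overlap. In tissue of this kind, fewer cells of a type and less RNA per cell cannot be told apart.

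Per length, the calcineurin subunits *Ppp3r1* and *Ppp3ca* had the highest levels of the 10 genes. Divided by the union of exons in kilobases, the WT mean was 18.7 ± 0.263 CPM per kb for *Ppp3r1* (SD, n = 4). *Ppp3ca* followed at 13.5 ± 0.762 CPM per kb, and in each of the 7 samples *Ppp3r1* was above *Ppp3ca* and *Ppp3ca* above *Ppp3cb*.

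With the union of exons as length, the next 5 genes had levels whose neighbors in the order were not separated by their spread over WT samples. *Ppp3cb* was at 8.80 ± 1.17 CPM per kb and *Nfatc3* at 8.49 ± 0.464 CPM per kb. *Rcan1* was at 8.34 ± 1.15, *Nfatc1* at 8.14 ± 1.18, and *Nfat5* at 7.01 ± 3.05 CPM per kb. The 3 lowest, *Nfatc4* at 1.82 ± 0.452, *Rcan2* at 1.56 ± 0.110, and *Nfatc2* at 1.38 ± 0.546 CPM per kb, lay below *Nfat5* in all 7 samples and overlapped among themselves. With the length of the longest transcript in place of all exons, *Ppp3ca* (28.3 CPM per kb) came before *Ppp3r1* (21.1 CPM per kb). *Ppp3cb* (20.2 CPM per kb) then overlapped *Ppp3r1* in WT. It was above *Nfatc3* (16.6 CPM per kb) in all 7 samples, and *Nfatc3* was above *Nfatc1* (12.7 CPM per kb) in all 7. The order of the subunits and the ties among the next 5 genes thus rest on the length taken. *Nfatc4*, *Nfatc2*, and *Rcan2* were again the lowest 3.

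**Figure D2:**
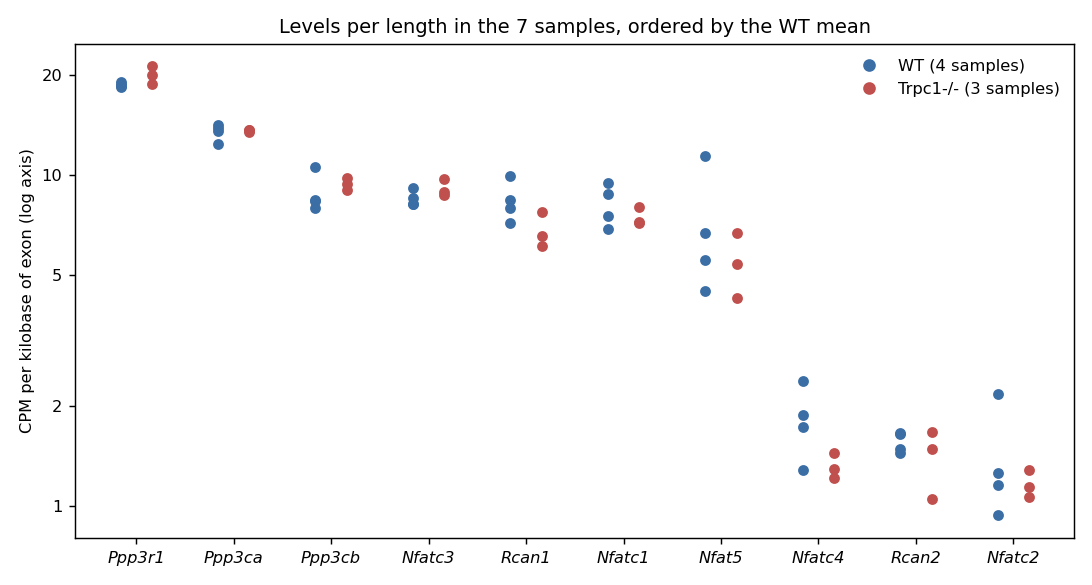
Level per length of the 10 genes in each sample, in TMM-normalized CPM per kilobase of exon on a log axis, ordered by the WT mean. Blue points are the 4 WT samples and red points the 3 *Trpc1*-/- samples. *Ppp3r1* and *Ppp3ca* stand above the rest, and *Nfatc4*, *Rcan2*, and *Nfatc2* form a separate low group in every sample.

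*Ppp3ca* (chr3:136670124-136937727, GRCm38) encodes the alpha catalytic subunit. It was at 124, 135, 138, and 141 CPM in WT replicates 1 to 4 and at 136, 136, and 134 CPM in *Trpc1*-/- replicates 1 to 3. All *Trpc1*-/- values lay inside the WT range, and the highest of the 7 samples was only 1.14 times the lowest, where the median of that ratio over all tested genes was 1.5 and its 10th percentile 1.18. The logFC was 0.01 ± 0.08 (95% interval -0.17 to 0.19), so the fitted fold lay between 0.888 and 1.14, and its sign changed with the sample left out (-0.03 to 0.03).

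*Ppp3cb* (chr14:20499364-20546573), the beta catalytic subunit, was at 92.8, 73.1, 70.1, and 74.1 CPM in WT and at 79.0, 86.0, and 82.6 CPM in *Trpc1*-/-. WT replicate 1 was the highest of all 7 and the other WT samples were the lowest. The logFC was 0.09 ± 0.11 (edgeR adjusted *P* = 0.768). Without WT replicate 1, it was 0.19 ± 0.05 (edgeR adjusted *P* = 0.176; DESeq2 adjusted *P* = 0.0524), and *Ppp3cb* was then the 1 gene of the 10 at an unadjusted *P* under 0.05, beside 16.9% of all genes. The library names hold a number, called the mouse number here. The labels do not say what it stands for, and each sample was a pool. Among samples with mouse numbers in the 1300s, which are WT replicates 1 and 2 and all *Trpc1*-/- samples, the logFC was -0.01 ± 0.13.

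*Ppp3r1* (chr11:17159263-17200375) encodes the calcium-binding regulatory subunit. WT samples were at 59.5, 61.5, 60.0, and 60.7 CPM and *Trpc1*-/- samples at 60.4, 68.5, and 64.7 CPM. The WT values were close together (SD 0.848), and *Trpc1*-/- replicate 1 fell among them while the other *Trpc1*-/- samples were higher. The logFC was 0.09 ± 0.07 (95% interval -0.06 to 0.25; edgeR adjusted *P* = 0.627), with no change of sign under any sample left out. *Ppp3r1* overlaps *Wdr92* on the same strand, so the reads shared by the exons of both were assigned by the authors' pipeline.

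Of the 2 inhibitors, *Rcan1* was lower in 2 of 3 *Trpc1*-/- samples than in any WT sample, and *Rcan2* in 1 of 3. *Rcan1* (chr16:92391953-92470867) was at 30.6, 25.8, 24.4, and 22.1 CPM in WT and at 23.8, 20.1, and 18.8 CPM in *Trpc1*-/-. *Trpc1*-/- replicate 1 was above WT replicate 4, and the groups overlapped by these 2 samples alone. The logFC was -0.30 ± 0.13 (95% interval -0.60 to 0.00; edgeR adjusted *P* = 0.499; DESeq2 adjusted *P* = 0.403), a fold of 0.813. It was below 0 with each sample left out (-0.40 to -0.21). Among mouse numbers in the 1300s, the logFC was -0.43 ± 0.14 (edgeR adjusted *P* = 0.373), and *Rcan1* and *Nfatc4* were the 2 of 10 genes at an unadjusted *P* under 0.05, where 13.3% of all genes were.

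*Rcan2* (chr17:43801351-44039516), which also binds and restrains calcineurin, was at 6.49, 7.21, 6.35, and 7.28 CPM in WT and at 4.60, 6.50, and 7.33 CPM in *Trpc1*-/-. A single *Trpc1*-/- sample was the lowest of the 7 and another was the highest. The logFC was -0.16 ± 0.17 (edgeR adjusted *P* = 0.733), and 0.02 without *Trpc1*-/- replicate 1. *Rcan1* made up 62.8% ± 3.30 of the summed level per length of the RCAN genes in WT (SD, n = 4) and 59.8% ± 4.20 in *Trpc1*-/- (n = 3), *Rcan2* 11.9% ± 1.56 and 12.6% ± 3.49, with *Rcan3* making up the rest.

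*Nfatc3* and *Nfatc1* supplied most of the NFATc transcript. *Nfatc3* (chr8:106058840-106130537), widely expressed in mesenchymal and immune cells, was at 95.5, 99.6, 95.9, and 107 CPM in WT and at 102, 114, and 104 CPM in *Trpc1*-/-. The groups overlapped, and the logFC was 0.10 ± 0.08 (95% interval -0.09 to 0.29; edgeR adjusted *P* = 0.668). *Nfatc1*, the osteoclast regulator, was at 70.7, 55.9, 51.2, and 65.4 CPM in WT and at 53.3, 59.9, and 53.9 CPM in *Trpc1*-/-. All *Trpc1*-/- values lay inside the WT range, and the logFC was -0.13 ± 0.12 (95% interval -0.41 to 0.15; edgeR adjusted *P* = 0.704).

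The make-up of the NFATc family was more alike among the *Trpc1*-/- samples than among the WT samples. *Nfatc3* was 36.7%, 44.7%, 46.2%, and 44.7% of the summed *Nfatc1* to *Nfatc4* level per length in WT and 47.7%, 47.5%, and 48.1% in *Trpc1*-/-. Each *Trpc1*-/- share was above each WT share, with either measure of length. With *Nfat5* added to the sum, the groups overlapped for *Nfatc3* with either length. Per union of exons, *Trpc1*-/- replicate 2 was then at 35.8% and WT replicate 3 at 36.9%. *Nfatc1* was 40.9% ± 2.16 in WT and 39.2% ± 0.109 in *Trpc1*-/- (SD), *Nfatc4* 9.18% ± 1.97 and 6.93% ± 0.280, and *Nfatc2* 6.84% ± 2.02 and 6.11% ± 0.223, all with overlapping groups. WT replicate 1 lay apart from the other WT samples for *Nfatc3* and for *Nfatc2* (9.82% against 5.30% to 6.17%). WT replicate 4 did so for *Nfatc4* (6.29% against 9.80% to 10.8%). The WT samples mixed series of mouse numbers, and the *Trpc1*-/- samples did not. The part of these series in the shares and their spread was not tested. These shares are descriptions without a test, and 1 gene's share moves with those of the others. No share over all genes stands beside them.

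*Nfatc4* was the gene of the 10 with the lowest unadjusted *P*. *Nfatc4* (chr14:55823144-55833943), an NFATc protein known from heart, nerve, and mesenchymal cells, was at 13.8, 10.9, 10.1, and 7.48 CPM in WT and at 7.53, 8.38, and 7.08 CPM in *Trpc1*-/-. WT replicates 1 to 3 were above every *Trpc1*-/- sample, and WT replicate 4 was among them. The mean was 10.6 ± 2.63 CPM in WT and 7.66 ± 0.661 CPM in *Trpc1*-/- (SD), with a logFC of -0.46 ± 0.20 (95% interval -0.92 to -0.01; edgeR adjusted *P* = 0.496; DESeq2 adjusted *P* = 0.329). It remained below 0 with each sample left out (-0.60 to -0.31).

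The unadjusted *P* of *Nfatc4* by edgeR was under 0.05 in only 1 of the 7 fits that leave out a sample, the one without WT replicate 4. Without that sample, DESeq2 gave an adjusted *P* of 0.0428, and this was the only fit run in which any of the 10 genes was called, where 1.72% of all genes were. Without WT replicate 1, the logFC was -0.31 ± 0.15 (edgeR adjusted *P* = 0.33). Among mouse numbers in the 1300s it was -0.69 ± 0.15 (edgeR adjusted *P* = 0.373), and both WT samples with numbers in the 1700s, replicates 3 and 4, are absent from that fit.

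The promoters of the 2 genes with the lowest unadjusted *P* are shown because NFAT binds GGAAA and *Rcan1* starts from a distal and an internal promoter, which a count over the whole gene adds up. The sequences are the 250 bases before the start in RefSeq's GRCm38.p6, 5′ to 3′ in the direction of the gene, with capitals marking GGAAA on either strand (TTTCC on the strand shown) and the AP-1 motif TGANTCA, which reads alike on both strands. The RefSeq start of *Nfatc4* lies inside the longer GENCODE gene.
*Rcan1* internal promoter (chr16:92400079-92400328, minus strand): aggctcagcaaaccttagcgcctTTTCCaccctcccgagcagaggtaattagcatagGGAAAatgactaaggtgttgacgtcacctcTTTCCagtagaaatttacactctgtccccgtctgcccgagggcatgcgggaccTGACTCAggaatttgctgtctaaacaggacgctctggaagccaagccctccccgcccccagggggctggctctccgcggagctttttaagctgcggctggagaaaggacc
*Rcan1* distal promoter (chr16:92466170-92466419, minus strand): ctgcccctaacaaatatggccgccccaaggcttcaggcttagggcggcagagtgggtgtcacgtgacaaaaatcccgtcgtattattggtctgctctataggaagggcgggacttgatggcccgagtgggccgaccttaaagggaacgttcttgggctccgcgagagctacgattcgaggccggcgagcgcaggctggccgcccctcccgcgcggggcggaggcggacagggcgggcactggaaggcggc
*Nfatc4* promoter (chr14:55824545-55824794, plus strand): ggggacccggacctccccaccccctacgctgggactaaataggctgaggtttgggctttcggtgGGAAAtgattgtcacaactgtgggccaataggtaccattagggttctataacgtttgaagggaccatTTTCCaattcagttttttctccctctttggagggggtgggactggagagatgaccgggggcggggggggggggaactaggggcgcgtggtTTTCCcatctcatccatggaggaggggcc

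The internal *Rcan1* promoter held 3 matches to GGAAA and 1 to TGANTCA, the distal one held neither, and *Nfatc4* held 3 matches to GGAAA. The matches in *Nfatc4* began at positions -186, -119, and -29 from the start, and those in the internal *Rcan1* promoter at -227, -193, and -163, with TGANTCA at -110, and no match overlapped another. The motif GGAAA is short: 55.6% of 32851 promoters of the same length held it at least once, and 6.39% held it 3 times or more. TGANTCA was in 6.75%, and 0.457% had both it and at least 3 matches to GGAAA. RefSeq promoters were counted for 8 of the 10 genes, in 13 windows, of which 8 held GGAAA and 2 held TGANTCA. Windows on chromosome 18, where *Nfatc1* lies, were left out of this count, and *Ppp3ca* had no window in it. A match describes the letters, and binding was not measured here.

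The fibroblast marker sum shared its highest and lowest WT samples with *Nfatc4* and *Rcan1*, and so did the sums of other cell types. The 5 fibroblast markers, all detected, summed to 6182, 5305, 4755, and 2953 CPM in WT and to 4159, 3771, and 3254 CPM in *Trpc1*-/-. WT replicate 1 was the highest and WT replicate 4 the lowest WT sample in this sum, in *Nfatc4*, and in *Rcan1*. The same held for the chondrocyte, muscle, and adipocyte sums. Of these, the muscle and adipocyte sums were higher in *Trpc1*-/- (mean log2 difference 1.37 and 0.49). *Col3a1* made up most of the fibroblast sum (5165 CPM in WT replicate 1). The fibroblast marker *Prg4* had its lowest WT level in replicate 3 (388 CPM) and not in replicate 4 (494 CPM). *Thy1*, a surface marker of fibroblasts, was at 13.8, 13.2, 12.4, and 8.29 CPM in WT and at 8.55, 7.22, and 7.57 CPM in *Trpc1*-/- (logFC = -0.62; edgeR adjusted *P* = 0.407), and 5 of 5 fibroblast markers had a logFC below 0 (median -0.35). So did 8 of 8 chondrocyte markers (median -0.42) and 7 of 7 osteoblast markers (median -0.26), and the chondrocyte sum was low in *Trpc1*-/- replicates 1 and 3 but highest of the 7 samples in *Trpc1*-/- replicate 2. The part of any of these cell types in the values of *Nfatc4* and *Rcan1* was not tested.

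**Figure D3:**
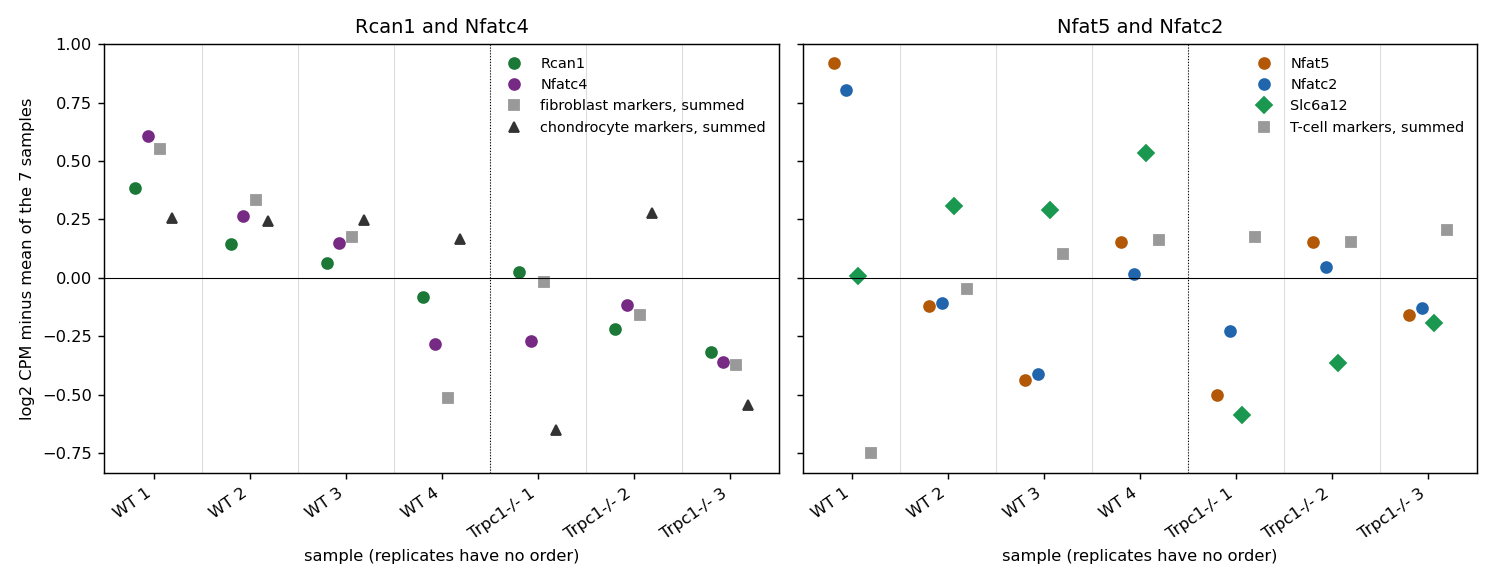
Level of 4 of the genes, of *Slc6a12*, and of summed marker lists in each sample, as log2 CPM minus the mean over the 7 samples. In the left panel *Rcan1*, *Nfatc4*, and the fibroblast sum are all highest in WT replicate 1, and the chondrocyte sum is lowest in *Trpc1*-/- replicates 1 and 3. In the right panel *Nfat5* and *Nfatc2* are highest in WT replicate 1, where the T-cell sum is lowest.

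*Nfatc2* and *Nfat5* varied more among WT samples than between the genotypes. *Nfatc2* (chr2:168476410-168601657), the NFAT of activated T cells that chondrocytes also express, was at 23.0, 12.2, 9.92, and 13.4 CPM in WT and at 11.3, 13.6, and 12.1 CPM in *Trpc1*-/-. WT replicate 1 stood apart at 1.95 times the mean of the other WT samples, and the other WT samples, at 9.92 to 13.4 CPM, overlapped the *Trpc1*-/- samples, at 11.3 to 13.6 CPM. The logFC was -0.24 ± 0.27 (95% interval -0.87 to 0.38; edgeR adjusted *P* = 0.743) and 0.06 ± 0.12 without WT replicate 1. The 6 T-cell markers summed to 12.7 CPM in WT replicate 1 and to 20.7 to 24.7 CPM in the other 6 samples. This low level was not particular to T cells. WT replicate 1 was also the lowest of the 7 samples in the B-cell (151 CPM) and erythroid (15383 CPM) sums. The same was so for the neutrophil (5197 CPM), macrophage (407 CPM), and osteoclast (355 CPM) sums. The part of any of these cell types in the values of *Nfatc2* was not tested.

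*Nfat5* (chr8:107293470-107379517), the osmotic stress regulator, was at 209, 102, 81.7, and 123 CPM in WT and at 78.1, 123, and 99.0 CPM in *Trpc1*-/-. WT replicate 1 was 2.05 times the mean of the other WT samples, which overlapped the *Trpc1*-/- samples. The logFC was -0.37 ± 0.32 (95% interval -1.11 to 0.38; edgeR adjusted *P* = 0.681) and -0.03 ± 0.19 without WT replicate 1. Its counts before normalization were 9585 to 11443 in all 7 samples while the total counts of those samples ran from 52142451 to 118254070. *Nfat5* and *Nfatc2* were 2 of the 10 genes with WT replicate 1 over 1.5 times the mean of the other WT samples, beside 15.2% of all tested genes. WT replicate 1 also had the lowest total count and the highest muscle marker sum, 1036 CPM against 59.0 to 873 CPM in the other samples. The part of either in these values was not tested. The Methods give RNA integrity only as an average with its SD over the 7 samples, so it could not be set against these values.

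The genes whose sample pattern was most like that of *Nfat5* were unreviewed loci. Likeness was the root mean square difference of gene-centered log2 CPM over the 7 samples, computed for the 2 genes of the 10 with the largest absolute logFC. For *Nfat5*, the nearest 3 genes were *Gm36638* (0.0374), *A130050O07Rik* (0.0494), and *Gm37531* (0.0517). The median over all tested genes was 0.469, which is no baseline for genes picked as the nearest. All 3 lie on other chromosomes and carry the annotation TEC, a GENCODE class for transcribed regions without an established gene structure. Of 819 tested TEC loci, 75.6% had WT replicate 1 over 1.5 times the mean of the other WT samples, and of 13564 tested protein-coding genes 10.2% did. The median ratio was 1.92 for TEC loci and 0.972 for protein-coding genes, so the ratio of *Nfat5*, itself protein coding, was near that of the TEC loci. What sets this ratio was not tested.

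For *Nfatc4*, the nearest 3 were protein-coding genes. *Mtmr11*, of the myotubularin family, came first (0.0483), then *Evc2*, a ciliary protein of hedgehog signaling in cartilage (0.0547), and the zinc finger gene *Zscan18* (0.0571). The median over all tested genes was 0.377, which again is no baseline for genes picked as the nearest. *Evc2* was at 17.1, 12.9, 11.6, and 9.67 CPM in WT and at 9.17, 10.4, and 8.26 CPM in *Trpc1*-/-, with the same overlap by WT replicate 4 as *Nfatc4*.

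**Figure D4:**
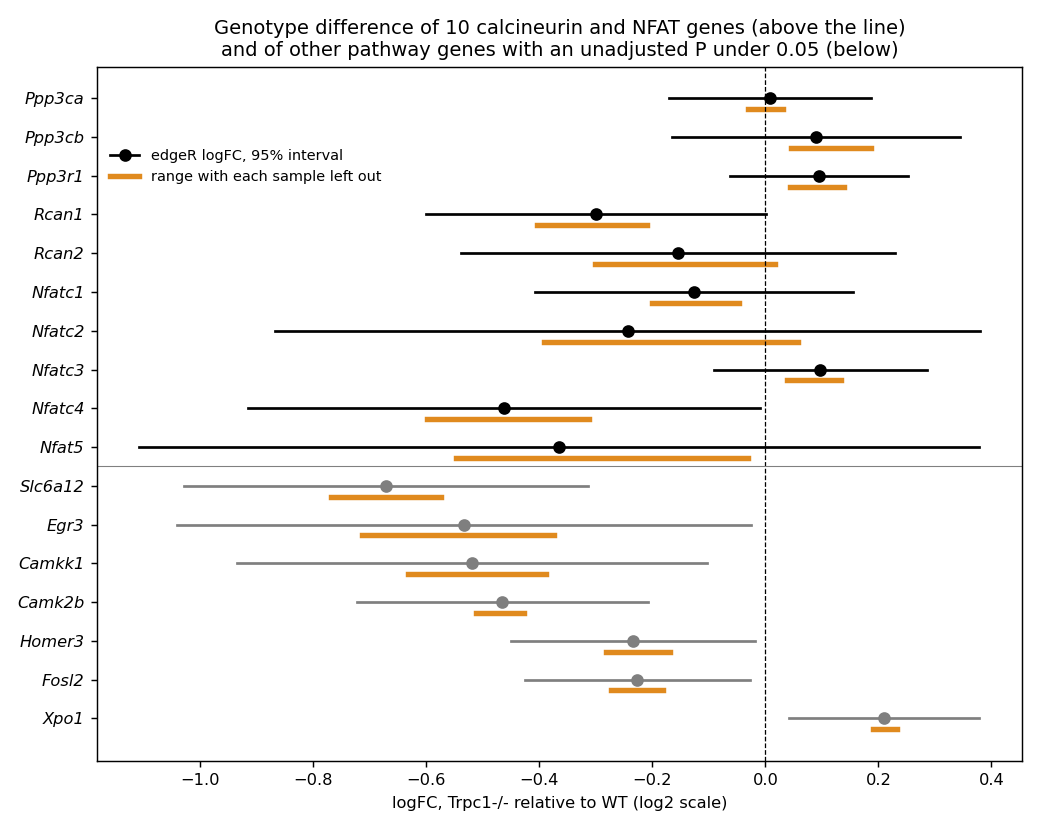
Genotype difference of the 10 genes (black, above the line) and of 7 other pathway genes with an unadjusted *P* under 0.05 (gray, below), as edgeR logFC with its 95% interval on the log2 scale. Orange bars span the logFC with each sample left out. The interval of *Nfatc4* (-0.92 to -0.01) is the only one of the 10 that does not include 0, and the orange bars of *Ppp3ca*, *Rcan2*, and *Nfatc2* cross 0.

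Other genes of the pathway were read from 8 lists with 77 genes, of which 72 were tested. The 5 below the filter were *Ppp3r2*, the testis form of the regulatory subunit, the AP-1 gene *Fosl1*, and the T-cell cytokine and ligand genes *Il2*, *Ifng*, and *Cd40lg*. At an unadjusted *P* under 0.05, 1 of 72 was higher and 6 were lower in *Trpc1*-/-, where 4.51% of all genes were higher and 5.49% were lower. The edgeR test called 0 of 72 after adjustment and DESeq2 called 3, 1 higher and 2 lower, where it called 0.962% of all genes higher and 0.828% lower. The groups did not overlap for 3 higher and 7 lower genes, as for 7.16% and 6.41% of all genes.

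Upstream of NFAT, the other calcineurin genes and the NFAT kinases held no gene at an unadjusted *P* under 0.05, beside 10.0% of all genes. The list of other calcineurin subunits, anchors, drug receptors, and calmodulins had 10 tested genes with a median logFC of 0.10 (-0.23 to 0.26). The 8 GSK3, DYRK, and casein kinase 1 genes, which phosphorylate NFATc proteins and so oppose calcineurin, had a median logFC of -0.01 (-0.15 to 0.05). In this list the groups did not overlap for *Csnk1a1* alone, at 254 to 261 CPM in WT and 264 to 270 CPM in *Trpc1*-/-, a gene singled out after its values were seen.

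The transport and scaffold list held the 1 higher gene. *Xpo1* (chr11:23256041-23298249), the exportin that carries rephosphorylated NFAT out of the nucleus, was at 162, 161, 163, and 170 CPM in WT and at 193, 193, and 184 CPM in *Trpc1*-/-. Every *Trpc1*-/- sample was above every WT sample. The logFC was 0.21 ± 0.07 (edgeR adjusted *P* = 0.448), and *Xpo1* was called by DESeq2 (adjusted *P* = 0.00847), a fold of 1.16. DESeq2 called it in 2 of the 7 fits that leave out a sample, those without WT replicate 1 and without WT replicate 4. *Homer3*, a scaffold that competes with calcineurin for NFAT, had a logFC of -0.23 (edgeR adjusted *P* = 0.479), with 12.7 to 15.0 CPM in WT and 10.8 to 12.6 CPM in *Trpc1*-/-.

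Among the calmodulin-dependent kinases, the parallel branch by which calcium and calmodulin act, 8 of 10 had a logFC below 0, where 51.9% of all genes did. In this list 2 had an unadjusted *P* under 0.05 by edgeR, beside 10.0% of all genes. *Camk2b*, the beta subunit of CaMKII (chr11:5969644-6066362), was at 5.86, 6.55, 6.64, and 5.57 CPM in WT and at 4.46, 4.35, and 4.57 CPM in *Trpc1*-/-. The groups did not overlap, and the logFC was -0.47 ± 0.11 (edgeR adjusted *P* = 0.395). DESeq2 called it (adjusted *P* = 0.0118), and called it again in 2 of 7 fits with a sample left out, those without WT replicate 1 and without WT replicate 4. *Camkk1*, the kinase that activates CaMKI and CaMKIV, was at 6.46 to 9.79 CPM in WT and at 4.41 to 6.18 CPM in *Trpc1*-/- (logFC = -0.52 ± 0.18; edgeR adjusted *P* = 0.446; DESeq2 adjusted *P* = 0.195). The groups did not overlap for 4 of these 10 genes, all lower in *Trpc1*-/-, as for 6.41% of all genes. The others were *Camk2g* and *Camk2n1*, named after their values were seen.

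The partners and targets of NFATc proteins gave 2 genes at an unadjusted *P* under 0.05, both lower, beside 10.0% of all genes. *Fosl2*, an AP-1 subunit, was at 109, 97.4, 89.8, and 102 CPM in WT and at 84.2, 87.8, and 83.2 CPM in *Trpc1*-/-. The groups did not overlap (logFC = -0.23 ± 0.09; edgeR adjusted *P* = 0.469; DESeq2 adjusted *P* = 0.23). *Egr3*, an immediate early gene induced through calcineurin in T cells, was at 7.63, 5.57, 4.73, and 5.28 CPM in WT and at 3.07, 4.90, and 4.03 CPM in *Trpc1*-/-. WT replicate 3 and *Trpc1*-/- replicate 2 overlapped (logFC = -0.53 ± 0.22; edgeR adjusted *P* = 0.486; DESeq2 adjusted *P* = 0.295). The median logFC was -0.09 over 12 tested partners and -0.21 over 6 tested activation targets. Among the activation targets, the groups did not overlap for *Vcam1* alone, a gene named after its values were seen. It was higher in *Trpc1*-/-, at 168 to 292 CPM in WT and 297 to 363 CPM in *Trpc1*-/- (logFC = 0.41 ± 0.19; edgeR adjusted *P* = 0.511; DESeq2 adjusted *P* = 0.341).

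The osteoclast genes that NFATc1 drives showed no gene at an unadjusted *P* under 0.05, beside 10.0% of all genes. All 11 were tested, and 8 had a logFC below 0, beside 51.9% of all genes. Their groups overlapped in each case, whereas 13.6% of all genes had groups that did not overlap. The median logFC was -0.07 (-0.35 to 0.58). The 7 osteoclast markers, all of them also among these 11 genes, summed to 355 to 753 CPM in WT and 431 to 624 CPM in *Trpc1*-/-.

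Among 8 osmotic response genes that NFAT5 regulates, 1 had an unadjusted *P* under 0.05, beside 10.0% of all genes. *Slc6a12* (chr6:121343076-121365775), the betaine and GABA transporter that cells use to take up osmolyte, was at 6.56, 8.07, 7.98, and 9.44 CPM in WT and at 4.34, 5.07, and 5.70 CPM in *Trpc1*-/-. The groups did not overlap, and the order of WT samples differed from that of *Nfat5*, since WT replicate 1 was the lowest of the WT samples for *Slc6a12* and the highest for *Nfat5*. The logFC was -0.67 ± 0.15 (95% interval -1.03 to -0.31; edgeR adjusted *P* = 0.395), a fold of 0.628. DESeq2 called it (adjusted *P* = 0.00997), and called it in 3 of 7 fits with a sample left out, those without WT replicate 1, without WT replicate 4, and without *Trpc1*-/- replicate 3. It had the largest absolute logFC of the 7 genes named by the rule, and the other 7 osmotic genes had a logFC of -0.25 to 0.13. The median over the 8 was -0.15.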

How the data were processed

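RNA-Seq was performed by the authors on 7 samples of mouse knee cartilage after DMM. From 300 ng of total RNA per sample, stranded libraries were made after depletion of ribosomal RNA. The submitters' processing notes name bcl2fastq, cutadapt 2.5, HISAT2 2.1.0, StringTie 2.0.3, and the genome build GRCm38. The authors deposited expected counts per gene, estimated from StringTie coverage and not normalized. They were whole numbers already, so rounding changed none. How reads shared by overlapping genes were assigned was fixed at that point.

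Genotype was fitted by edgeR's quasi-likelihood model (edgeR 4.0.16, R 4.3.3) with TMM factors, on genes above 1 CPM in 2 samples or more. *P* values were adjusted by Benjamini-Hochberg over all 16429 genes, at a threshold of 0.05. DESeq2 1.42.0, the tool of the study, and limma-voom (limma 3.58.1) were alternatives, with other normalizations and filters, the replicate number as a block, the series of mouse numbers, and each sample left out. Standard errors came from the F statistic. The fits were run on simulated counts with the same dispersion for all genes and no sample set apart, unlike these data. The labels call the samples biological replicates, and they are pools of 2 to 3 mice, so *P* values measure the spread between pools. A level of 3 counts, taken as the floor, was 0.0244 to 0.063 CPM and covers counting error only.

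Exon lengths and positions came from GENCODE M21, which matched 55141 of 55401 genes, and promoters from RefSeq (GRCm38.p6). The 10 genes, the lists, and the tests were chosen with earlier results of these data known. The text names the 10 genes, pathway genes with an unadjusted *P* under 0.05 in edgeR or an adjusted *P* under 0.05 in DESeq2, the 3 genes most like each of the 2 with the largest absolute logFC, *Trpc1*, and cell type markers. The study's staining and culture data were not used here.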

Additional observations from a re-analysis of the deposited data

Results flagged for a closer look

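In 4 results, 1 WT sample lay far from the other 3, by the gap to its nearest neighbor divided by the range of the 4 WT samples, with a critical value of 0.829 at the 95% level. They came from 30 quantities examined, and chance gives about 1 such group in 20. For *Xpo1*, the ratio was 0.839, with WT replicate 4 the highest WT sample at 170 CPM and still below the *Trpc1*-/- samples. For the summed chondrocyte markers, it was 0.853, with WT replicate 4 the lowest WT sample at 5322 CPM. For the summed macrophage markers, it was 0.891, with WT replicate 1 at 407 CPM and the other WT samples at 570.3 to 590.3 CPM. For the summed muscle markers, it was 0.859, with WT replicate 1 at 1036 CPM and the other WT samples at 59.0 to 197 CPM. None of the 10 calcineurin and NFAT genes was among the 4, and the distance of WT replicate 1 for *Nfat5* and *Nfatc2* fell short of the critical value.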

How the results depend on the processing

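Under all alternatives run, edgeR and limma-voom called 0 of the 10 genes, and DESeq2 called 0 except *Nfatc4* without WT replicate 4 (logFC = -0.59, adjusted *P* = 0.0428), so its count ran from 0 to 1 with a sample left out. The sign of small differences turned: *Ppp3ca* was -0.0032 with upper quartile scaling, -0.052 with total counts, -0.031 without WT replicate 1 (-0.027 by DESeq2), and -0.0014 without *Trpc1*-/- replicate 2. *Ppp3cb* was -0.0078 with the mouse number series as covariate and -0.0092 among the 1300s alone. *Nfatc2* was 0.057 without WT replicate 1 (0.060 by DESeq2), and *Rcan2* 0.016 without *Trpc1*-/- replicate 1 (0.017 by DESeq2). With a sample left out, *Ppp3ca* ran from -0.03 to 0.03, *Rcan2* from -0.30 to 0.02, *Nfatc2* from -0.39 to 0.06, *Nfatc4* from -0.60 to -0.31, and *Trpc1* from -0.54 to -0.37. *Trpc1* was called by DESeq2 without *Trpc1*-/- replicate 2 (-0.52).

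Counts over all genes depended on the tool. They were 0 by edgeR (1643 at an unadjusted *P* under 0.05), 1 by limma-voom, and 294 by DESeq2; with a sample left out they ran from 0 to 52 by edgeR and from 37 to 892 by DESeq2, both highest without WT replicate 1. By DESeq2 they were 62, 134, and 281 without WT replicates 2, 3, and 4, and 84 and 371 without *Trpc1*-/- replicates 1 and 2. Of the other pathway genes, DESeq2 called 3, and 0 to 5 with a sample left out.

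Same-numbered samples did not deviate together (correlations -0.348, -0.205, and -0.0439), so the replicate numbers were not taken as pairs. Blocked on these numbers (replicate block), edgeR called 0 genes and DESeq2 54, and neither called any of the 10 or of the other pathway genes, so that *Xpo1*, *Camk2b*, and *Slc6a12* were not called by DESeq2 there (adjusted *P* = 0.867, 0.606, and 0.384). On the same 6 samples without the block, a fit added after the data were seen, edgeR also called 0.

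With the longest transcript as length, WT levels were 28.3 (*Ppp3ca*), 20.2 (*Ppp3cb*), 21.1 (*Ppp3r1*), 11.1 (*Rcan1*), 2.06 (*Rcan2*), 12.7 (*Nfatc1*), 2.14 (*Nfatc2*), 16.6 (*Nfatc3*), and 2.80 (*Nfatc4*) CPM per kb.

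With 4 and 3 samples, an interval of *Nfat5* as wide as -1.11 to 0.38 does not show that the genotypes are alike. The cause of these changes with the setting was not tested.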
